A study of Brassica napus with 6 samples.

Results

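Seeds of oilseed rape (Brassica napus) taken 40 days after flowering were compared between plants under drought stress and control plants. The comparison rests on 2 of the 6 RNA sequencing libraries of the series, 1 for droughted seeds and 1 for control seeds. The other 4 libraries are seeds of days 30 and 50 under the same treatments, and the control libraries of those days serve here to place the genes in seed development. The drought stress was applied from the start of flowering, and all plants stood under a rain shelter with ordinary care until then. The labels speak of 6 lines, without tying them to libraries, so a difference between lines, plants or seed lots cannot be told apart from drought. The labels name seed as the tissue and do not say whether seeds of several plants were pooled. With 1 library for each treatment on each day there is no replicate and no test, and all values below describe these libraries.

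Seeds of this species fill with storage protein and oil as the embryo grows and then lose water as they mature. Transcripts for storage proteins and oil body proteins build up during filling, while those of growth and photosynthesis decline. Drought during flowering and seed filling is known to lower seed yield and oil content in rapeseed. The genome is allotetraploid, with an A subgenome derived from Brassica rapa and a C subgenome from Brassica oleracea, so many genes exist as near-identical A and C copies. Reads of such copies can be shared, which limits what the count of 1 gene can tell.

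The deposited count table lists 72611 gene models, and the files do not pair their IDs with gene names. None of the IDs matched the reference gene table used here (0 matches), so genes are described by level, length, subgenome and course in control seeds, and seed or other tissue markers could not be looked up. The drought library held 10314859 counted reads and the control library 13893472. The drought library was the smallest of the 6 and differed from the other 5 in how its counts followed gene length, as described below. Levels are given in CPM, reads per 1000000 of the library, where the library size was first adjusted by TMM (trimmed mean of M values). CPM is not corrected for gene length, so classes by CPM are classes of read number. The comparison took in the 26621 genes that averaged 5 CPM or more over both libraries. At 5 CPM a gene had about 39 reads in the drought library and 73 in the control library, and counting error alone then spans a ratio of 0.663 to 1.502 (95% exact interval). At 100 CPM the span was 0.915 to 1.09. Such intervals cover counting error only, not differences between plants.

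More genes were higher than lower in droughted seeds under TMM scaling, and fewer with library totals or the authors' FPKM. In droughted seeds 1608 genes (6.04% of those compared) stood 2-fold or more above control and 1081 (4.06%) 2-fold or more below. Together these were 10.1% of the genes. The log2 ratio of drought to control had a median of 0.02 and a standard deviation across genes of 0.67, and 5% of genes lay below -0.93. At least 4-fold differences were seen for 228 genes higher (0.856%) and 93 lower (0.349%), and at least 16-fold differences for 19 higher and 6 lower. Fewer cells of a type and less RNA per cell cannot be told apart in such bulk samples.

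How many genes were higher and how many lower depended on the scaling. Of the genes at least 2-fold apart, 59.8% were higher under TMM and 61.7% under relative log expression. When counts were divided by library totals and genes selected again at 5 CPM, 513 genes were higher and 4296 lower, or 10.7% higher. That scaling lowers the log2 ratio of a well-read gene by 0.48 and moved the median of the compared genes to -0.46. With the authors' FPKM (fragments scaled by gene length and library size) 46.7% were higher. The medians of gene classes below are therefore set beside the median over all compared genes.

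The genes that were at least 2-fold higher in drought carried a large part of the library. They held 43.9% of all counts in droughted seeds of day 40, against 22.0% in control seeds of that day. These genes were chosen by that difference. The libraries of the other days were not used to choose them. There the same genes held 5.76% in drought and 6.57% in control at day 30, and 38.6% in drought and 37.3% in control at day 50. The genes at least 2-fold lower held 1.20% in drought and 4.28% in control at day 40, and on the other days 6.38% in drought and 6.16% in control (day 30) and 1.31% in drought and 2.17% in control (day 50). The Wilson 95% bounds of these shares lay at most 0.0303 percentage points away, which covers counting error only. Thus the higher genes were a small part of the seed transcriptome at day 30 and a large part at day 50 under both treatments. Much of their share at day 40 lay in few genes. The 10 genes with most reads, all among the higher genes, held 24.6% of counts in drought and 12.3% in control at day 40.

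The share of genes higher in drought was greatest among the genes with most reads. Of the 117 genes with a mean of 500 CPM or more over the day 40 libraries, 57 were higher in drought by 2-fold or more and 4 lower, with a median log2 ratio of 0.95. Of the 1049 genes from 100 to 500 CPM, 172 were higher and 41 lower, with a median of 0.26. Under library totals the first class had 21 higher and 8 lower genes, and the second turned round, with 95 higher and 121 lower. Between 20 and 50 CPM, 5.13% of 6506 genes were higher and 3.35% lower, and between 5 and 10 CPM, 5.84% of 8815 genes were higher and 5.26% lower. The share of higher genes thus lay near the 6.04% of all genes at low levels and was 48.7% at the top. This trend differed by control course. Most of the 229 higher genes of 100 CPM or more came from those over 4-fold up from control day 30 to day 50. Drought exceeded control 2-fold or more for 176 of 244 such genes (72.1%). Among 667 genes of that level within 2-fold between those control days, 26 (3.90%) were higher and 18 (2.70%) lower. High level alone thus did not go with a high share of higher genes.

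**Figure D1:**
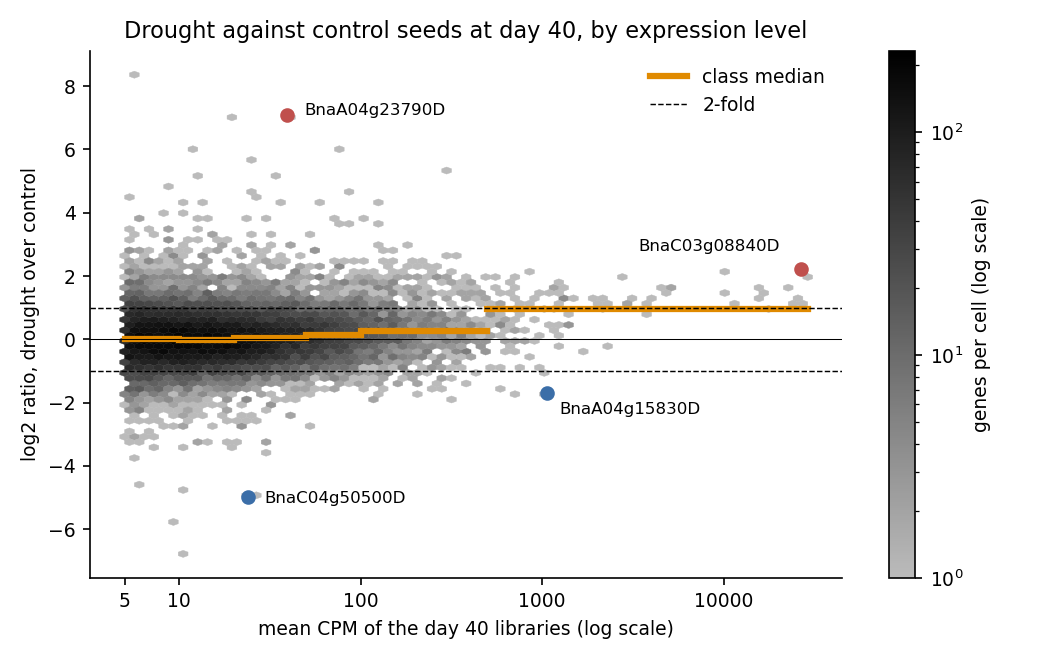
Log2 ratio of drought to control at day 40 (vertical) against the mean CPM of both libraries on a log axis (horizontal), with the number of genes shown in grey, class medians in orange and the 4 named genes as points. The median lies near 0 up to 50 CPM and at 0.95 for genes of 500 CPM or more.

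A high share of higher genes at the top levels was also seen when genes were sorted by libraries outside the comparison. In that sorting the share was raised among scarce genes too. By their mean in control seeds of days 30 and 50, 52 of 100 genes at 500 CPM or more were higher in drought and 5 lower, with a median log2 ratio of 1.04. Of 907 genes from 100 to 500 CPM, 123 were higher and 58 lower, with a median of 0.09. For genes scarce on those days the counts depended on the filter at day 40. Of 1437 compared genes from 1 to 5 CPM, 221 were higher and 52 lower, with a median of 0.27. A gene that is scarce in control at day 40 can reach a mean of 5 CPM there only through the drought library, and 528 of the 1437 were under 5 CPM in control at day 40. With every gene that had a read at day 40 let in, an alternative chosen after seeing the data, 2045 of 16787 such genes were higher and 2415 lower, so the order turned round. The compared scarce genes were short, with a median length of 1165 bases against 1643 bases over all compared genes, and 141 of them were higher and 67 lower with the length trend described below removed.

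The 10 genes with most reads in the drought library were the same 10 as in the control library, and all 10 were at least 2-fold higher in drought. Their log2 ratios ran from 1.02 to 2.21. With counts divided by library totals the lowest of these ratios was 0.54, and with the authors' FPKM 0.86, so each stayed above 0. Of these genes 6 were at most 1000 bases long, and 6 of the 10 stayed at least 2-fold higher once the length trend was removed. Among the 100 genes with most reads in the drought library, 63 were at least 2-fold higher and 0 lower. Among the 100 with most reads in the control library, which shared 75 genes with that list, 43 were higher and 7 lower. Each list was chosen by 1 side of the ratio, so the first favours genes high in drought and the second genes high in control. Over all compared genes 6.04% were higher and 4.06% lower.

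Since the IDs carry no names, 4 genes were named by rule: the largest and smallest ratio among genes of at least 20 CPM, and the largest gain and loss in CPM. BnaA04g23790D had the largest ratio. It had 611 reads (78.3 CPM) in droughted seeds and 8 reads (0.545 CPM) in control seeds at day 40, a ratio of 144 with a 95% counting interval of 72.4 to 334. At day 30 it had 7 reads (0.330 CPM) in drought and 1 read (0.0640 CPM) in control, and at day 50 it stood at 534 CPM in drought and 24.7 CPM in control. The transcript was thus scarce at day 30 and more abundant on each later day in both treatments. It was higher in drought at days 40 and 50, while the 7 reads and 1 read of day 30 are too few to tell. The droughted seeds of day 40 lay above the control seeds of day 50.

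BnaC03g08840D had the largest gain in CPM. It stood at 44024 CPM in drought and 9514.5 CPM in control at day 40, a ratio of 4.63 (interval 4.60 to 4.66). At day 30 it stood at 1671 CPM in drought and 2334 CPM in control, and at day 50 at 13141 CPM in drought and 17423 CPM in control. Only at day 40 was drought above control, and that value was also the highest of the 6. Its length was 531 bases, and with the length trend removed its log2 ratio was 1.72 in place of 2.21.

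BnaC04g50500D had the smallest ratio. It had 11 reads (1.41 CPM) in droughted seeds and 678 reads (46.2 CPM) in control seeds at day 40, a 32.8-fold lower level with an interval of 18.2 to 66.0. At day 30 it stood at 121 CPM in drought and 83.0 CPM in control, and at day 50 at 1.41 CPM in drought and 6.05 CPM in control. Control seeds had little of this transcript by day 50, and droughted seeds of day 40 were already at the level they had at day 50. The gene next in rank lies on A04 by its ID and was alike, with 12 reads in drought and 720 in control at day 40.

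BnaA04g15830D had the largest loss in CPM. It stood at 500.5 CPM in drought and 1630 CPM in control at day 40, a 3.26-fold lower level (interval 3.15 to 3.37). At day 30 it stood at 822 CPM in drought and 515 CPM in control, and at day 50 at 860 CPM in drought and 1452 CPM in control. Droughted seeds of day 40 were the lowest of the 6 libraries, although control seeds had more of this transcript at days 40 and 50 than at day 30. The gene next in rank for loss lies on C04 by its ID, with 328 CPM in drought and 1115 CPM in control at day 40, and control seeds likewise had more of it at day 50 (974 CPM) than at day 30 (391 CPM). Both differed in drought against the direction of the control course. All 4 named genes kept their direction with counts divided by library totals (log2 ratios of 6.60, 1.73, -5.45 and -2.18 in the order given) and with the authors' FPKM (6.90, 1.80, -5.09 and -2.09).

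**Figure D2:**
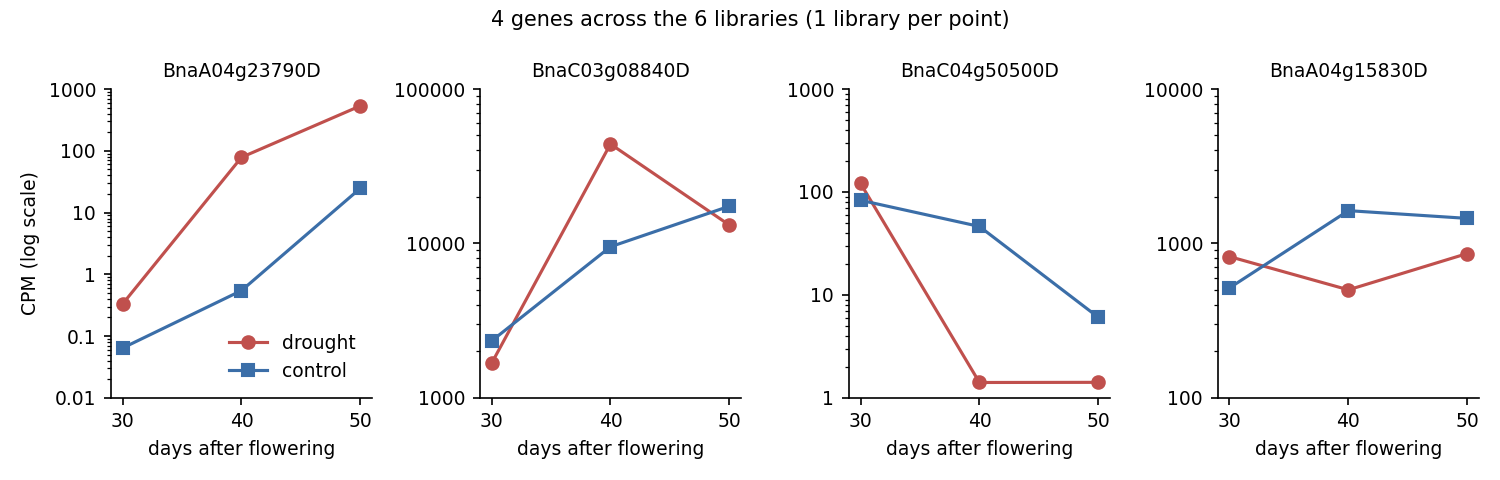
CPM on a log axis against days after flowering for the 4 named genes, with droughted seeds as red circles and control seeds as blue squares and 1 library per point. At day 40 the drought value of BnaC03g08840D (44024 CPM) is the highest and that of BnaA04g15830D (500.5 CPM) the lowest of the 6 libraries.

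The genes at the extremes differed in the direction of the control course. The 10 largest ratios among the 9631 genes of at least 20 CPM ran from 4.34 to 7.08 on the log2 scale. In control seeds all 10 stood higher on day 50 than on day 30, by 3.63 to 11.13 on the log2 scale. The 10 smallest ran from -4.97 to -2.69, and in control seeds all 10 stood lower on day 50 than on day 30, with log2 changes of -6.48 to -2.29. Over all 26621 compared genes, 13.5% stood over 2-fold higher on control day 50 than on control day 30, and 9.23% over 2-fold lower. Genes this far apart can reach a mean of 20 CPM largely through the library where they are high. That is the drought library for the largest ratios and the control library for the smallest. The 10 with the largest ratios were 243 to 1244 bases long, and the 10 with the smallest 879 to 2989 bases. With the length trend removed the first 10 lay between 3.55 and 6.70 and the other 10 between -4.85 and -2.74. At day 50, whose libraries the choice did not use, 9 of the first 10 and 7 of the other 10 were also at least 2-fold apart in the same direction between drought and control. Of all 9631 genes at that level, 6.34% were at least 2-fold higher in drought at day 50 and 14% lower.

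Whether the genes that differ were those that change as seeds mature was asked with control libraries of days 30 and 50, which the comparison does not use. Of the 1608 genes higher in drought, 936 (58.2%) had over 2-fold more transcript on control day 50 than on control day 30, against 13.5% of all compared genes. A further 570 were within 2-fold, and 102 (6.34%) were over 2-fold lower. Of the 1081 genes lower in drought, 436 (40.3%) had over 2-fold less on control day 50, against 9.23% of all compared genes, while 553 were within 2-fold and 92 (8.51%) over 2-fold higher. The median level of the higher genes was 18.3 CPM at day 50 against 5.79 CPM at day 30 in control seeds, and that of the lower genes 10.5 CPM at day 50 against 17.5 CPM at day 30. In the drought libraries of the other days 1093 of the higher genes (68.0%) were over 2-fold higher at day 50 than at day 30, against 18.3% of all compared genes, and 627 of the lower genes (58.0%) were over 2-fold lower, against 17.2% of all.

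Genes were then sorted by their control course. The 1477 genes with over 4-fold more transcript on control day 50 than on control day 30 are called rising genes here, and the 678 with over 4-fold less falling genes, as names for these fold classes of 2 libraries. Among the rising genes, drought was above control by 2-fold or more for 729 (49.4%) and below it for 27 (1.83%). Over all compared genes these shares were 6.04% and 4.06%. The median log2 ratio of the rising genes was 0.98, beside 0.02 over all compared genes. Of the falling genes 219 (32.3%) were at least 2-fold lower in drought and 39 (5.75%) higher, with a median of -0.63. With the length trend removed these medians were 0.90 and -0.70. With counts divided by library totals they were 0.50 and -1.11, where all compared genes had -0.46, and with the authors' FPKM 0.86 and -0.75, where all had -0.07. The 20565 genes within 2-fold between control days 30 and 50 had a median within 0.01 of 0 under TMM, with 570 higher and 553 lower.

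**Figure D3:**
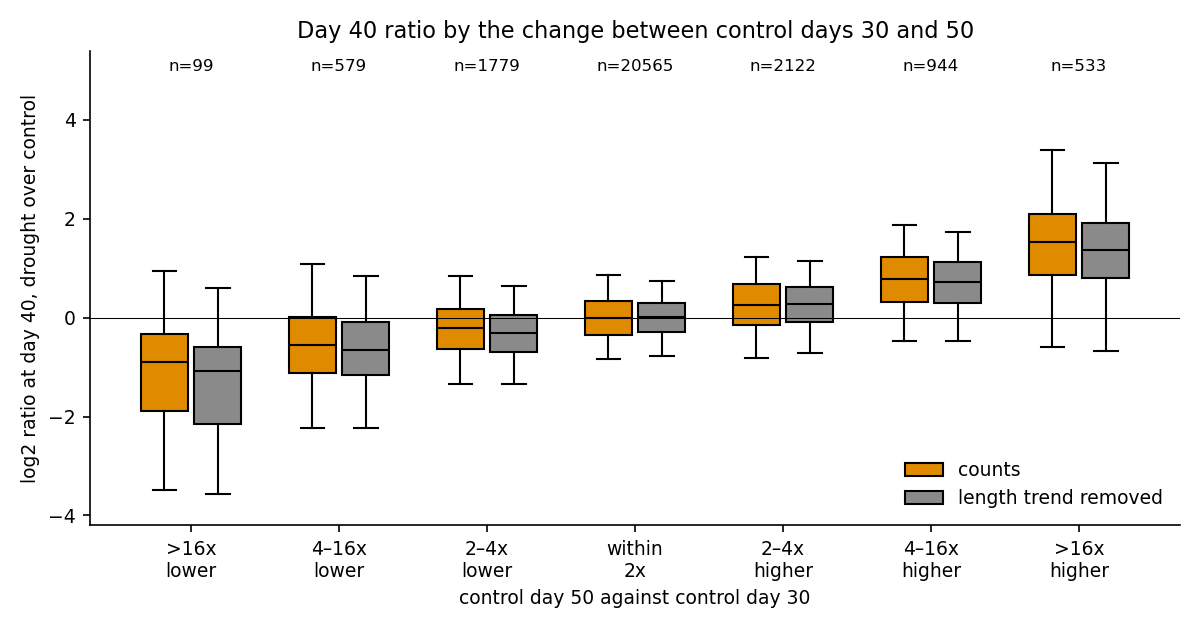
Log2 ratio of drought to control at day 40 (vertical) for genes grouped by the fold between control seeds of day 50 and day 30 (horizontal), from counts in orange and with the gene length trend removed in grey. Boxes span the quartiles with the median as a line, whiskers run from 5% to 95% of genes, and the medians run from -0.89 for genes over 16-fold lower to 1.54 for genes over 16-fold higher.

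This order of the medians by control course was present at every level, in both subgenomes and in all classes of length. Falling genes lay lowest, genes within 2-fold between them and rising genes highest. Among the rising genes 40.7% of 759 genes under 20 CPM, 51.5% of 474 genes from 20 to 100 CPM and 72.1% of 244 genes of 100 CPM or more were at least 2-fold higher in drought. Among the falling genes 31.9% of 489, 33.8% of 151 and 31.6% of 38 were at least 2-fold lower in drought at these levels. Of the rising genes 50.0% of 730 A genes and 49.3% of 677 C genes were at least 2-fold higher, and of the falling genes 30.4% of 335 A genes and 35.4% of 322 C genes were at least 2-fold lower. Only among the shortest falling genes, up to 400 bases, did higher genes outnumber lower ones. Of these 32 genes 11 (34.4%) were at least 2-fold higher and 4 (12.5%) lower. Over all 362 genes that short the shares were 31.5% and 1.66%. The median log2 ratio of the 32 was 0.58, against 0.69 for genes that short within 2-fold between control days 30 and 50. With the length trend removed it was -0.06. Of 88 falling genes over 400 to 700 bases 10 were higher and 24 lower, and of 83 over 2500 bases 0 were higher and 48 lower. Over all genes of these lengths, 17.9% and 1.22% were higher and 2.03% and 7.05% lower. The rising genes of 2-fold or more above control made up 86.1% of 36 genes up to 400 bases and 24.9% of 197 genes over 2500 bases. Over all genes of these lengths 31.5% and 1.22% were that much higher. In the class with most of the compared genes, over 1500 to 2500 bases, 36.4% of 440 rising genes were at least 2-fold higher and 37.6% of 210 falling genes at least 2-fold lower, against 1.30% and 2.59% of 7142 genes that differed by at most 2-fold from control day 30 to day 50.

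Genes scarce on 1 control day and present on the other had larger ratios. Of 359 genes under 1 CPM in control seeds at day 30 and at least 5 CPM at day 50, 239 were at least 2-fold higher in drought at day 40 and 9 lower, with a median log2 ratio of 1.63. Of 35 genes at least 5 CPM at day 30 and under 1 CPM at day 50, 14 were at least 2-fold lower and 3 higher, with a median of -0.74. Such genes had to reach a mean of 5 CPM at day 40 to be compared, so the first class was open to genes let in by the drought library alone, and 136 of its 359 genes were under 5 CPM in control at day 40. Likewise the second class holds no genes already lost by day 40. Let in by a single read at day 40, the first class had 692 genes, 406 higher and 20 lower with a median of 1.36, and the second 700 genes, 61 higher and 360 lower with a median of -1.06. The same step left 930 higher and 38 lower of 1949 rising genes at 5 CPM or more on control day 50, and 116 higher and 738 lower of 1760 falling genes at 5 CPM or more on control day 30. The 22084 genes at 5 CPM or more on both control days had a median of -0.01, with 789 higher and 810 lower.

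The place of each day 40 library on the way from control day 30 to control day 50 was then measured on the log2 scale for each gene. The filter of 5 CPM at day 40 could let in rising genes through the drought library alone. Of 1445 rising genes at 5 CPM or more on control day 50, 243 were under 5 CPM in control at day 40 and 23 in drought. Of 668 falling genes at 5 CPM or more on control day 30, 35 were under 5 CPM in control at day 40 and 156 in drought. The place was not measured without this filter. For the 1477 rising genes the drought library stood at a median of 93.1% of the way and the control library at 64.9%. The quartiles of these genes lay at 79.6% and 105% in drought and at 52.5% and 76.5% in control. Drought was further along than control for 1286 of them (87.1%), and past the level of control day 50 for 508, where the control library of day 40 was past it for 116. For the 678 falling genes the drought library stood at 62.7% of the way and the control library at 39.2%, and drought was further along for 508 genes (74.9%). With the length trend removed the drought values were 90.6% and 66.5%. With counts divided by library totals, which changes the genes in both classes to 1029 and 1355, drought stood at 88.3% and 76.1% and control at 68.7% and 41.1%. By these medians over the genes that passed the filter, droughted seeds of day 40 lay nearer to control seeds of day 50 than control seeds of day 40 did. This held for both classes and under each of these scalings. Effects of the treatment and of the library cannot be told apart here.

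Not all genes followed this order. Of the 1477 rising genes 27 (1.83%) were at least 2-fold lower in drought, against 4.06% of all compared genes. Of the 678 falling genes 39 (5.75%) were at least 2-fold higher, near the 6.04% of all compared genes. With the length trend removed these were 28 (1.90%) and 25 (3.69%) genes, against 3.64% and 4.5% of all compared genes. Genes that were steady in control seeds also differed. Of 19519 genes within 2-fold across all 3 control days, 946 (4.85%) differed by 2-fold or more, with 487 above and 459 below control, against 10.1% over all compared genes. The control library of day 40 is part of both that class and the comparison. With the length trend removed 582 of them (2.98%) were at least 2-fold apart, against 8.13% over all compared genes. Counting only genes whose 95% counting interval lay wholly past 2-fold gave 181 of these steady genes. Over all compared genes that rule gave 816 higher and 341 lower. At 20 CPM or more 305 of the steady genes were at least 2-fold apart, beside 723 higher and 310 lower over all genes of that level.

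Short genes tended to be higher in drought and long genes lower by counts, while in the authors' FPKM the shortest class was not above 0. In the shortest class, up to 400 bases, the median log2 ratio was 0.75, and 31.5% of 362 were at least 2-fold higher in drought while 1.66% were lower. Genes over 2500 bases had a median of -0.28, and 1.22% of 6002 were higher while 7.05% were lower. The classes between lay in order, with medians of 0.49, 0.31, 0.13 and -0.04. Over 26621 genes, log2 length and the log2 ratio had a Pearson correlation of -0.394, as a description of genes that share both libraries. Among genes within 2-fold between control days 30 and 50 it was -0.464, among genes of 100 CPM or more -0.406, among A genes -0.398 and among C genes -0.395. Of the genes higher in drought 49.7% were at most 1000 bases long, and of those lower 10.5%, against 20.4% of all compared genes.

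The length trend was strongest in pairs that held the drought library of day 40. For this, the 27455 genes averaging 5 CPM or more across the 6 libraries were used. In the 5 pairs with that library over another, Pearson correlations between log2 ratio and log2 length ran from -0.177 (over control day 30) to -0.462 (over control day 50), with -0.361 over control day 40. These 5 pairs share 1 library. In the 10 pairs without it, the correlation was between 0.00736 and 0.162 in size, so the weakest of the first set lay close to the strongest of the second. The median log2 ratio of genes of up to 400 bases minus that of genes over 2500 bases was 0.65 to 1.18 in the first set and 0.06 to 0.60 in size in the second. The control library of day 40 had a correlation of 0.0115 over control day 30 and -0.0879 over control day 50.

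**Figure D4:**
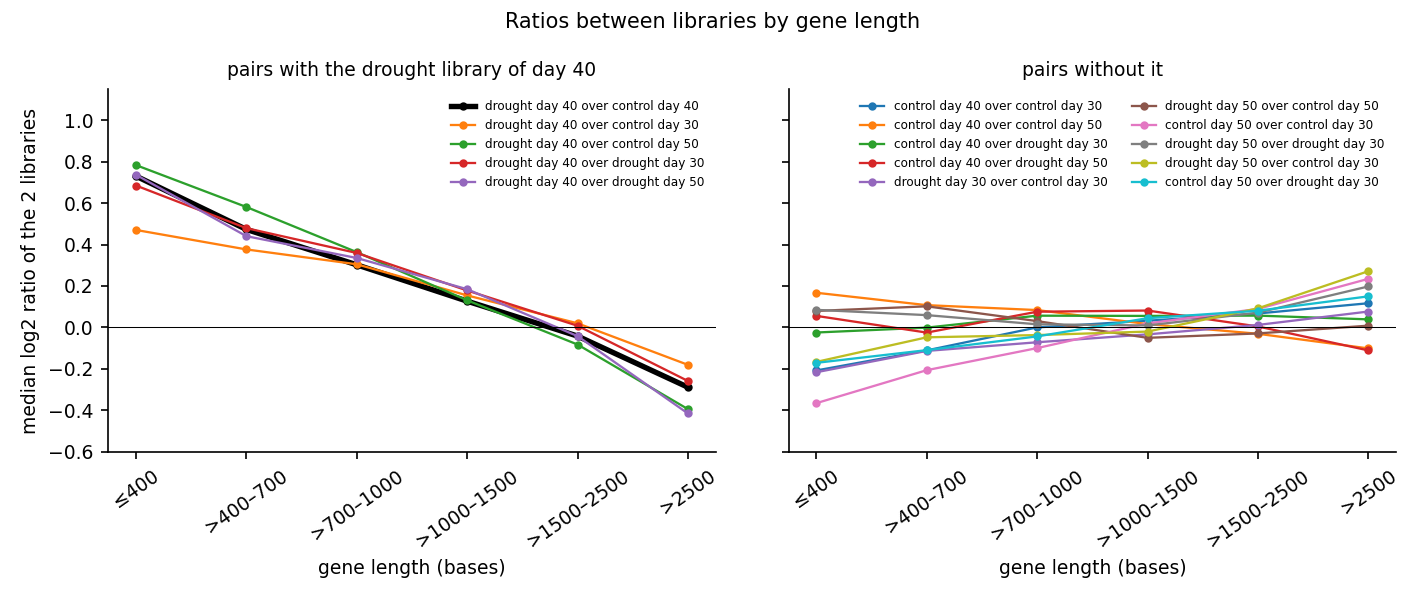
Median log2 ratio of a pair of libraries (vertical) by class of gene length in bases (horizontal), for the 5 pairs that hold the drought library of day 40 (left) and the 10 that do not (right). Every line on the left falls with length, with drought over control at day 40 in black going from 0.73 in the shortest class to -0.29 in the longest.

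The authors' FPKM carry a length scaling of their own that also set the drought library apart. Reads per unit of FPKM and base, taken relative to genes over 2500 bases, stood at 32.9% for genes of up to 400 bases in the drought library of day 40 and at 21.9% in the control library of that day. In the other 4 libraries it was 20.5% to 26.9%. In the FPKM the median log2 ratio of genes of up to 400 bases was -0.04 in place of 0.75, so the shortest class was no longer above 0. That of genes over 400 to 700 bases was 0.22 and that of genes over 2500 bases -0.32, and the correlation with log2 length was -0.257. How the RNA or library preparation of that sample took part in the length trend was not tested.

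With the length trend removed, 1197 genes (4.5%) were at least 2-fold higher and 968 (3.64%) at least 2-fold lower, 8.13% in all. Of the 1608 genes higher by counts 1037 (64.5%) stayed in the list and made up 86.6% of the later one. Of the 1081 lower genes 737 (68.2%) stayed and made up 76.1% of the later one. The genes that left the higher list had a median length of 696 bases, and those that left the lower list 3519.5 bases. Among genes of up to 700 bases the number higher was 187 in place of 475, and among genes over 2500 bases the number lower was 145 in place of 423. The order by expression level remained, with 41 of the 117 genes of 500 CPM or more at least 2-fold higher and 5 lower.

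Both subgenomes differed between drought and control to a like extent. Of 12590 A genes 9.95% differed by 2-fold or more, with 799 above and 454 below control, and of 13197 C genes 9.82%, with 741 above and 555 below, against 10.1% over all. The median log2 ratio was 0.04 for A genes and 0.01 for C genes. Among genes at least 2-fold apart, 63.8% of A genes and 57.2% of C genes were higher. With the length trend removed these shares were 59.3% and 53.2%. With counts divided by library totals lower genes outnumbered higher ones in both subgenomes, 1974 against 281 for A and 2258 against 271 for C. Of the 787 new gene models 16.8% differed by 2-fold or more, 65 (8.26%) upward and 67 (8.51%) downward, with a median of -0.07.

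On 18 of the 19 chromosomes named in the IDs more genes were higher than lower in drought under TMM, 10 of 10 A chromosomes and 8 of 9 C chromosomes. Under library totals this held for 0 of the 19. Chromosome C02 had 44 higher and 53 lower genes of 874, the largest share of lower genes (6.06%) and the lowest median log2 ratio (-0.10). The share of higher genes was lowest on C07, with 3.90% of 1283 genes, and highest on A04, with 8.12% of 739 genes. A04 also had the shortest genes (median 1551 bases). With the length trend removed the share of higher genes was lowest on C02 (3.66%) and highest on A05 (5.77%), with 3.90% on C07 and 5.01% on A04. The share of genes at least 2-fold apart in either direction then ran from 6.78% on C07 to 8.80% on A04. In 459 windows of 50 compared genes each, taken in the order of their IDs, the median log2 ratio ran from -0.35 on A02 to 0.44 on C09. No window had a median past 2-fold (0 of 459). The most genes at least 2-fold higher in a window was 11 of 50, on C05, and the most lower was 9, on A02. The genes that differed were thus spread over all chromosomes.

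**Figure D5:**
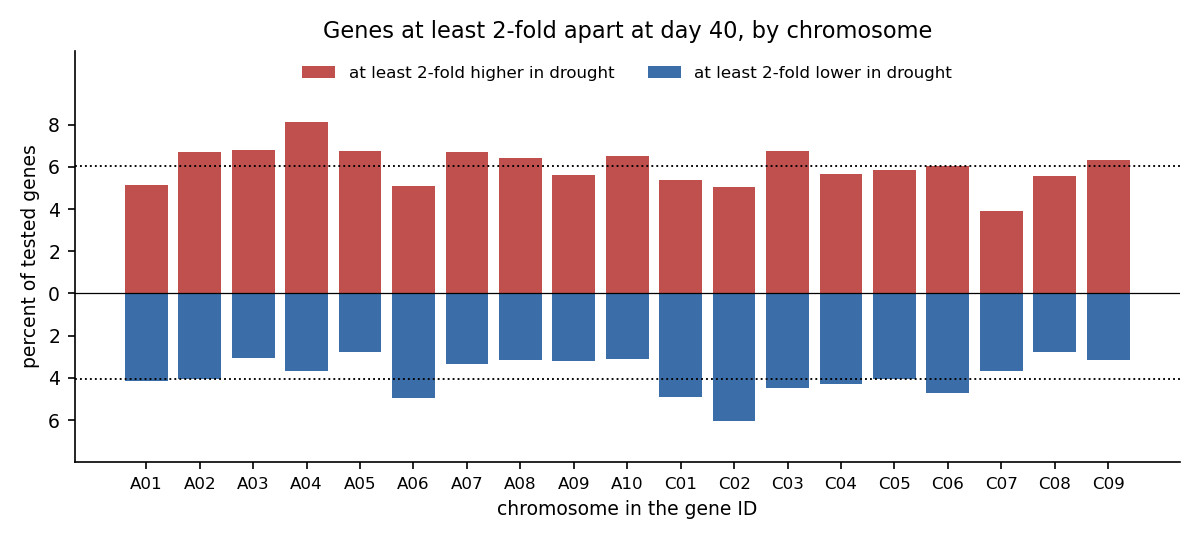
Percent of compared genes at least 2-fold higher (red, upward) and at least 2-fold lower (blue, downward) in drought at day 40 under TMM, for each chromosome named in the gene IDs, with dotted lines at the shares over all compared genes (6.04% and 4.06%). Red bars exceed blue bars on 18 of 19 chromosomes under TMM, with C02 the exception.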

How the data were processed

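RNA sequencing of seeds gave 6 libraries, 1 per treatment and day. The authors deposited whole-number read counts per gene for all 6 with gene lengths, and 1 file per library of values read here as FPKM, since the submitters' processing notes name Cufflinks and the headers give no unit. No source used here gives the aligner, counting tool, genome build or strand setting. Counts were scaled with TMM in edgeR 4.0.16 (R 4.3.3) over the 49832 of 72611 genes kept by filterByExpr. Log2 ratios used a prior of 0.5 reads, and FPKM ratios a pseudocount of 0.1, which understates the change of low genes. The length trend was a lowess fit of the ratio on log2 length (span 0.2, statsmodels 0.14.6), subtracted with the median added back. No p-value was computed, since each group has 1 library. DESeq2 1.42.0 gave the relative log expression factors. Named genes were the largest and smallest ratio at 20 CPM or more and the largest CPM gain and loss; genes next in rank were added after their values were seen. The gene classes and the named-gene rule were chosen with earlier results of these data known. The lists by gene function could not be used without gene names.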

Additional observations from a re-analysis of the deposited data

Results flagged for a closer look

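Some drought differences of day 40 had the opposite sign on another day, and with 1 library per treatment and day these differences between days were not tested. BnaC03g08840D had a log2 ratio of drought to control of 2.21 at day 40, against -0.48 at day 30 and -0.41 at day 50. BnaC04g50500D had -4.97 at day 40 and 0.54 at day 30. BnaA04g15830D had -1.70 at day 40 and 0.67 at day 30. Gene length (log2) and the drought ratio correlated across genes at -0.361 on day 40, against 0.162 on day 30 and 0.00736 on day 50.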

How the results depend on the processing

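Of 90 values (10 counts of genes under 9 alternatives), 51 lay within 1.5 times the count reported and 39 did not. All 10 counts did under relative log expression, TMM of the day 40 pair alone and a prior of 5 reads. In what follows the counts come in the order higher, lower, up to 700 bases and higher, over 2500 bases and lower, A apart, C apart, rising and higher, falling and lower, and steady across the control days and apart, with rising and falling as over 4-fold between control days 30 and 50. By TMM they were 1608, 1081, 475, 423, 1253, 1296, 729, 219 and 946. Library totals gave 513, 4296, 178, 1826, 2167, 2440, 348, 601 and 2498. Without a level filter they were 8531, 8108, 3012, 1122, 7352, 8016, 2126, 2177 and 3172, over the 61625 genes with a read. At 20 CPM or more they were 723, 310, 230, 140, 502, 487, 420, 63 and 305, over 9631 genes. Counting only genes whose 95% counting interval lay wholly past 2-fold gave 816, 341, 272, 112, 563 and 531 for the first 6 counts, 131 for falling and lower, and 181 for steady and apart. Removing the length trend gave 187 short genes higher, 145 long genes lower and 582 steady genes apart, and the authors' FPKM gave 276 short genes higher. Level filters differ by how many genes they leave, and the interval rule is stricter than a ratio of 2-fold. Library totals lower the log2 ratio of a well-read gene by 0.48. What else lay behind the moves was not tested. No paired analysis was possible because each treatment has 1 library per day, and no replicate could be left out. Depth limits low genes most: 979 of the 2689 genes at least 2-fold apart had a mean of 5 to 10 CPM.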
